A study of Homo sapiens with 16 samples.

Results

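SR proteins are splicing factors that bind exons through an RNA recognition motif and recruit the spliceosome through a domain rich in arginine and serine. The levels of 10 genes of this system were followed in a pair of established human cell lines from colorectal cancers, HT55 and SW948. The genes were selected by symbol, with earlier results of these data known. They comprised 7 SR proteins (SRSF1, SRSF2, SRSF3, SRSF5, SRSF6, SRSF7 and SRSF11), the related factors TRA2A and TRA2B, and CLK1, a kinase that phosphorylates SR proteins in the nucleus. Each symbol matched 1 Ensembl identifier, so 10 of the 54127 genes in the count tables were followed. Cells in adherent culture received itraconazole, an azole antifungal, at 5 µM, or DMSO as the solvent control, until RNA extraction on day 6. Each line gave 4 libraries with DMSO and 4 with itraconazole. The study's methods describe the 4 replicates as biological, but the labels do not say which were separate cultures, and p-values measure the spread between these libraries.

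Many SR genes hold a poison exon. This is a cassette exon that carries a stop codon early in the reading frame, so that a transcript which includes it is a target of nonsense-mediated decay and makes no full protein. SR proteins often promote inclusion of their own poison exon, which lowers their own mRNA. CLK1 phosphorylates the arginine and serine domain and so releases SR proteins from storage in nuclear speckles, and its own gene is known for retained introns. A gene count adds up the productive, poison and intron-retaining transcripts that share its exons. The release of the annotation used for counting is not given in the sources used here, so it is unknown which poison exons were counted.

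The GENCODE annotation on GRCh37 lists at least 1 decay transcript for all 10 genes. In 6 of them a decay transcript includes an internal exon that overlaps no exon of the canonical transcript and contains its stop codon. No such exon was found by this rule in SRSF1, SRSF2, SRSF5 or CLK1, whose annotated decay transcripts differ from the canonical transcript in other ways. The coding part of the longest such exon of each of the 6 genes is printed on the sense strand, from the first base of the exon to the stop codon, which is in capitals. The sequences show where in the exon the reading frame ends.
SRSF3: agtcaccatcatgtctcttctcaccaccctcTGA
SRSF6: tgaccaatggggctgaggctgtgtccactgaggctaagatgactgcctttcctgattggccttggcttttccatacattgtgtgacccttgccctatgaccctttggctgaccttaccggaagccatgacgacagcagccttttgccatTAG
SRSF7: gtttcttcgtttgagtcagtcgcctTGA
SRSF11: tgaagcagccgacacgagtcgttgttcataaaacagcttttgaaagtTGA
TRA2A: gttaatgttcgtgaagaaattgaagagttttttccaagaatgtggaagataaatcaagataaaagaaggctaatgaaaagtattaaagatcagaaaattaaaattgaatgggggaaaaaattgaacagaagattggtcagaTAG
TRA2B: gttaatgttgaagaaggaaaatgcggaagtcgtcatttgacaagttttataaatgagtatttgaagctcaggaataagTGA

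The printed stretches lie in GRCh37 at chr6:36567598-36567631 (plus strand, SRSF3), chr20:42087793-42087944 (plus, SRSF6), chr2:38976461-38976488 (minus, SRSF7), chr1:70697542-70697591 (plus, SRSF11), chr7:23561908-23562051 (minus, TRA2A) and chr3:185649560-185649640 (minus, TRA2B). The SRSF3 exon lies in intron 3 of the canonical transcript and is 456 bases long, and its frame ends after 31 bases. The SRSF7 exon, also in intron 3, is 449 bases long with 25 bases before the stop. The exons of TRA2A and TRA2B both lie in intron 1, are 301 and 276 bases long, and hold 141 and 78 bases before the stop. The SRSF6 exon (intron 2, 268 bases) holds 149 bases before its stop, and the SRSF11 exon (intron 2, 117 bases) holds 47. Inclusion of these exons was not measured, since the count tables hold 1 value per gene.

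The libraries held between 8269406 and 11110814 reads counted in genes. Of the entries tallied by the counting program for a library, 21.99% to 27.9% were marked as aligned to more than 1 place and were not counted in genes. All 8 colorectal epithelial markers were detected in every group, with EPCAM at 11195 to 22286 counts per library. The immune markers PTPRC and CD3E and the fibroblast markers COL1A2 and DCN had at most 2 counts in any library. The fibroblast marker LUM had at most 6, and COL1A1 passed the filter for testing over all 16 libraries. The myeloid markers CD68 and LYZ were detected: in HT55 CD68 averaged 30.5 CPM with DMSO and 46.1 with itraconazole, and LYZ 0.853 and 2.24. In SW948 CD68 averaged 20.5 and 110.5 CPM, and LYZ 318 and 109.6. Their part in the results was not tested. The fibroblast and endothelial list summed to at most 12.0 CPM in any library. In SW948 its sum was 2.24 to 4.26 CPM with DMSO and 9.72 to 12.0 with itraconazole. In HT55 it was 0.531 to 0.949 and 0.952 to 1.42 CPM. In such bulk RNA, fewer cells of a kind and less RNA per cell cannot be told apart. Itraconazole replicate 3 of HT55 stood apart: on the axis from the DMSO mean to the mean of the other treated libraries it reached 61.8%, against 90.0% to 110.3% for the others. HT55 fold changes of the 10 genes are therefore given with and without it, and so are the sums, shares and list counts that include it. Without it 3999 genes were called higher and 3912 lower in HT55, 64.5% of 12263 tested.

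Levels are given as CPM, the count per 1000000 reads in genes after TMM scaling. Itraconazole lowered most of the 10 genes. In HT55, 8 fell, 1 rose (CLK1) and 1 did not pass the test (SRSF11), where 54.0% of the 12133 genes tested were called, 27.5% as higher and 26.5% as lower (edgeR, adjusted p under 0.05). In SW948, 7 fell, 2 rose (SRSF11 and CLK1) and 1 did not pass (TRA2A), where 80.2% of 12505 genes were called, 38.9% as higher and 41.3% as lower. The median log2 fold change of the 10 genes was -0.70 in HT55 and -0.70 in SW948, and that of all genes tested was -0.02 in both. Added together, the 10 genes reached 1322 ± 26.6 CPM in HT55 with DMSO and 789 ± 173 with itraconazole (SD, n = 4), or 708 ± 72.2 without replicate 3 (n = 3). In SW948 the sums were 1653 ± 38.6 and 1041 ± 72.1 CPM.

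Scaling by plain library totals in place of TMM moved the median log2 fold change of all genes to -0.18 in HT55 and -0.35 in SW948. On that scale 2279 genes were called higher and 4710 lower in HT55, against 3340 and 3213 with TMM. In SW948 it was 3145 and 6832, against 4865 and 5165. The falls described here kept their direction under both scalings, and genes whose call or direction changed are named with their values.

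**Figure D1:**
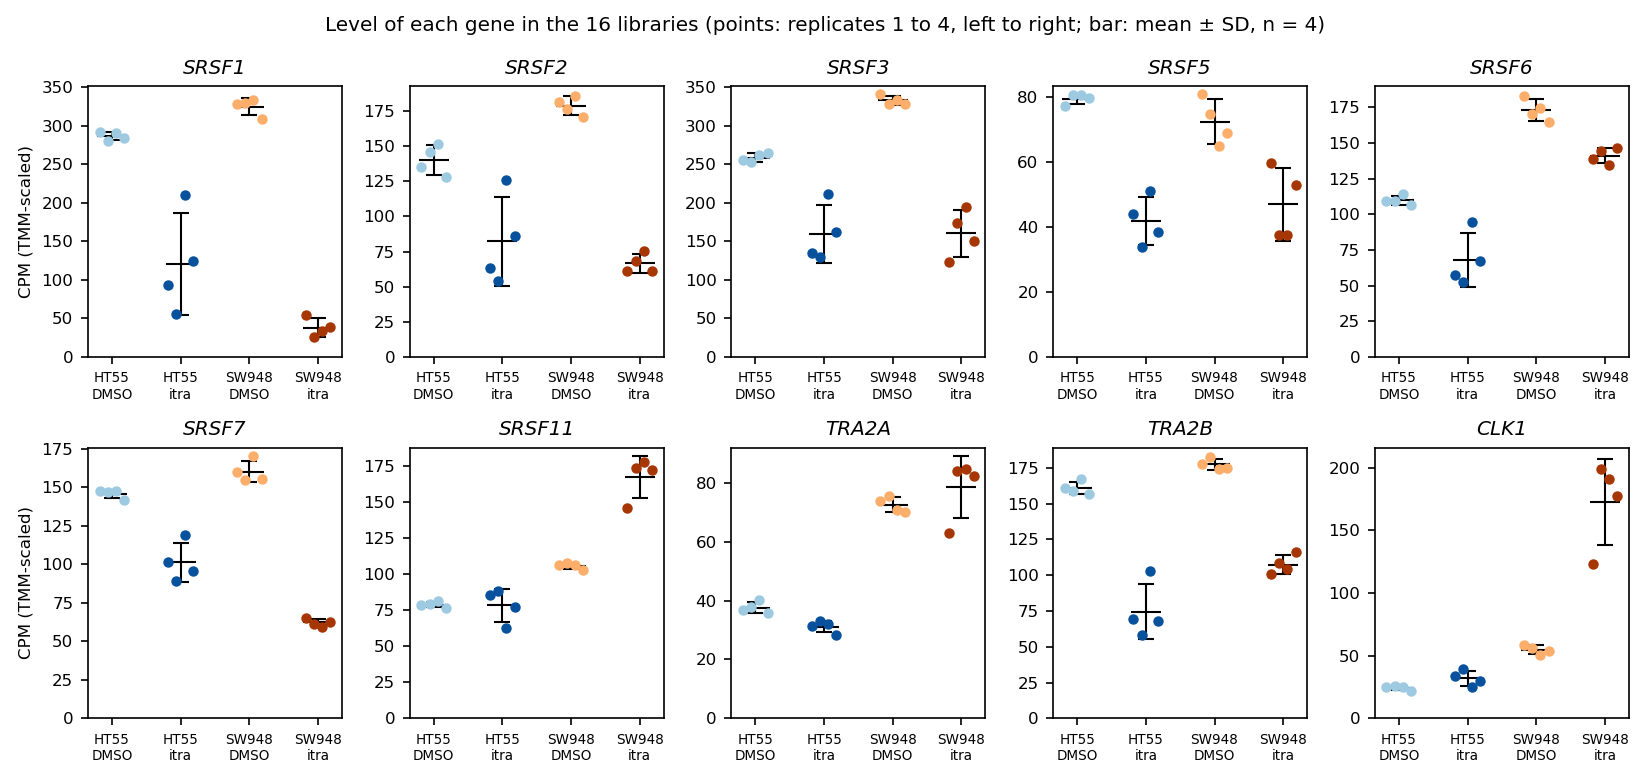
Level of each gene in CPM (TMM-scaled, axes from 0) in the 4 groups. Points are replicates 1 to 4 from left to right and bars are the mean ± SD (n = 4). SRSF1 in SW948 drops from 309 or more in every DMSO library to 53.8 or less in every treated library, and CLK1 rises from at most 58.8 to at least 123.

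SRSF1 (chromosome 17, 56078280 to 56084707, minus strand) is the founding SR protein, known for exon definition and as a proto-oncogene in several tumours. In HT55 its level was 292, 280.4, 290.2 and 284 CPM in the DMSO libraries and 93.1, 55.6, 209.7 and 124 CPM in the treated libraries, replicates 1 to 4. In SW948 it was 329, 329, 334 and 309 CPM with DMSO and 53.8, 25.3, 33.9 and 38.5 CPM with itraconazole. Treated and DMSO libraries did not overlap in either line, and the treated HT55 libraries spread far more widely than the others. SRSF1 had the largest fall of the 10 genes in both lines. Its log2 fold changes were -1.25 ± 0.30 (SE) in HT55 and -3.12 ± 0.16 in SW948, or 2.37 and 8.71 times lower (edgeR adjusted p = 0.00553 and 5.82e-10). Without HT55 replicate 3 the HT55 value was -1.65 (edgeR adjusted p = 3.36e-06). Among the 9726 SW948 genes whose mean log2 CPM was 3 or more it ranked 60 from the largest fall, and in HT55 it ranked 78 of 9497.

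SRSF2 (chromosome 17, 74730197 to 74733415, minus strand), also called SC35, marks nuclear speckles. HT55 with DMSO gave 135, 146, 152 and 128 CPM, and HT55 with itraconazole 63.2, 54.3, 126 and 86.0 CPM. SW948 gave 182, 177, 186 and 171 CPM with DMSO against 61.3, 68.4, 75.7 and 60.9 CPM with itraconazole. Treated replicate 3 of HT55 lay just under the lowest DMSO library, and the SW948 groups lay far apart. The fall of SRSF2 amounted on the log2 scale to -0.77 ± 0.21 (SE) for HT55 and -1.46 ± 0.076 for SW948 (edgeR adjusted p = 0.0114 and 8.63e-10), and -1.04 in HT55 without replicate 3. The gene shares 823 exon bases, 27.7% of its exon length, with MFSD11 on the opposite strand. Whether the counting used strand is not given in the sources used here, and without strand a read in the shared bases cannot be assigned to either gene. On its own strand SRSF2 shares 99 exon bases (3.33%) with the microRNA gene MIR636. MFSD11 had 37.8 ± 2.04 CPM in HT55 with DMSO, 40.1 ± 4.96 with itraconazole, and 24.9 ± 1.22 and 12.0 ± 1.25 in SW948 (SD, n = 4).

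SRSF3 (chromosome 6, 36562130 to 36573377, plus strand), the smallest SR protein, also acts in mRNA export and 3′ end choice. Its level was 255, 253, 262 and 265 CPM in HT55 with DMSO and 135, 129, 211 and 162 CPM after itraconazole. SW948 had 341, 329, 334 and 329 CPM with DMSO and 123, 173, 194 and 150.3 CPM with the drug. The treated libraries lay below the DMSO libraries in both lines. The fall was -0.70 ± 0.13 (SE) on the log2 scale for HT55 and -1.09 ± 0.11 for SW948 (edgeR adjusted p = 0.0015 and 4.45e-07), and -0.86 in HT55 without replicate 3.

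SRSF7 (chromosome 2, 38970741 to 38978636, minus strand) has a zinc knuckle and, like SRSF3, links splicing to export. DMSO libraries of HT55 held 148, 147, 147 and 142 CPM and treated libraries 101, 89.4, 119 and 95.9 CPM. In SW948 the values were 160.1, 155, 170.3 and 156 CPM against 65.2, 61.5, 59.4 and 62.9 CPM. All treated libraries were lower, and the treated SW948 libraries were tightly grouped. The log2 fold changes of SRSF7 were -0.53 ± 0.084 (SE) for HT55 and -1.40 ± 0.061 for SW948 (edgeR adjusted p = 0.000525 and 1.78e-10). Without HT55 replicate 3 the HT55 value was -0.60.

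SRSF5 (chromosome 14, 70193617 to 70238722, plus strand) is a shuttling SR protein known to respond to growth signals. HT55 had 77.1, 80.4, 80.5 and 79.6 CPM with DMSO and 43.9, 33.9, 51.0 and 38.5 CPM with itraconazole. In SW948 it had 80.8, 74.8, 65.0 and 68.9 CPM, and 59.7, 37.4, 37.5 and 52.9 CPM. The groups did not overlap, but treated SW948 replicates 1 and 4 lay nearer to the DMSO libraries than replicates 2 and 3. SRSF5 fell with log2 fold changes of -0.92 ± 0.11 (SE) for HT55 and -0.65 ± 0.13 for SW948 (edgeR adjusted p = 9.11e-05 and 0.00045), and -1.02 in HT55 without replicate 3.

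SRSF6 (chromosome 20, 42086533 to 42094686, plus strand) is an SR protein reported as amplified in some colorectal tumours. In HT55 it stood at 109, 109.6, 114 and 107 CPM with DMSO and at 57.5, 52.5, 94.4 and 67.1 CPM with itraconazole. The SW948 libraries held 183, 170.0, 174 and 165 CPM with DMSO and 139, 144, 135 and 147 CPM with itraconazole. The gap between the SW948 groups was small but no library crossed it. The log2 fold change was -0.69 ± 0.15 (SE) for HT55 and -0.33 ± 0.060 for SW948 (edgeR adjusted p = 0.00335 and 0.000165), the smallest fall that passed in SW948. Without HT55 replicate 3 the HT55 value was -0.89.

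SRSF11 (chromosome 1, 70671365 to 70718735, plus strand), a speckle protein that interacts with splice site recognition factors, did not follow the other SR genes. HT55 had 78.6, 78.9, 81.0 and 76.8 CPM with DMSO and 85.3, 87.9, 62.8 and 77.1 CPM with itraconazole. SW948 went from 106, 108, 106 and 103 CPM to 146, 173, 177 and 172 CPM. The HT55 groups overlapped, with replicate 3 the lowest of the treated libraries, while every treated SW948 library was higher than every DMSO library. The rise in SW948 was 0.63 ± 0.070 (SE) on the log2 scale (edgeR adjusted p = 1.33e-06). On plain library totals it was 0.29 (edgeR adjusted p = 0.000359), so its size depends on the scaling. The HT55 value of -0.02 ± 0.096 did not pass (edgeR adjusted p = 0.898), and without replicate 3 its sign turned, at 0.091 (edgeR adjusted p = 0.219).

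The TRA2 factors bind purine-rich exon enhancers together with SR proteins, and TRA2B is known to drive its own poison exon. TRA2B (chromosome 3, 185632346 to 185655891, minus strand) had 161, 159, 167 and 157 CPM in HT55 with DMSO and 69.2, 58.2, 103 and 68.2 CPM with itraconazole. Its SW948 values were 178, 183, 174 and 175 CPM, and 101, 108, 104 and 116 CPM. No treated library reached the level of a DMSO library. The log2 fold changes of TRA2B were -1.11 ± 0.145 (SE) for HT55 and -0.76 ± 0.062 for SW948 (edgeR adjusted p = 0.000156 and 5.98e-08). Of the 10 genes, TRA2B had the largest HT55 fall after SRSF1, and its value there without replicate 3 was -1.29.

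The paralog TRA2A (chromosome 7, 23544399 to 23571660, minus strand) moved far less. HT55 had 36.8, 37.8, 40.0 and 35.6 CPM with DMSO and 31.2, 32.9, 32.0 and 28.3 CPM with itraconazole. SW948 had 73.8, 75.4, 70.6 and 70.1 CPM, and 62.9, 84.0, 84.8 and 82.3 CPM. In SW948 treated replicate 1 lay below all DMSO libraries and the other treated libraries lay above them. TRA2A fell in HT55 (log2 fold change -0.27 ± 0.079 SE, edgeR adjusted p = 0.0132, and -0.28 without replicate 3), a call that was lost without DMSO replicate 3 (-0.23, edgeR adjusted p = 0.0539). The SW948 value of 0.08 ± 0.089 did not pass (edgeR adjusted p = 0.421). It was 0.19 and passed without treated replicate 1 (edgeR adjusted p = 0.00992). With plain library totals it turned to -0.26 and passed as a fall (edgeR adjusted p = 0.00781), so its direction in SW948 depends on the scaling.

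CLK1 (chromosome 2, 201717732 to 201729414, minus strand) went the other way. Its level in HT55 was 25.1, 25.6, 25.1 and 22.2 CPM with DMSO and 33.6, 39.4, 24.9 and 30.1 CPM with itraconazole. In SW948 it was 58.8, 56.5, 50.2 and 54.1 CPM with DMSO and 123, 199, 191 and 177 CPM with itraconazole. Treated HT55 replicate 3 lay among the DMSO libraries, and the SW948 groups were far apart. The SW948 rise was 1.62 ± 0.125 (SE) on the log2 scale, or 3.07-fold (edgeR adjusted p = 3.41e-08), and ranked 393 among the rises of the 9726 genes whose mean log2 CPM was 3 or more. On plain library totals it was 1.28 (edgeR adjusted p = 1.16e-07). The HT55 rise was 0.38 ± 0.13 (edgeR adjusted p = 0.0306) and 0.50 without replicate 3 (edgeR adjusted p = 0.000744). The HT55 call was fragile: leaving out 1 library at a time ended it in 6 of 8 fits, at log2 fold changes of 0.26 to 0.41, and on plain library totals (0.21, edgeR adjusted p = 0.147).

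Treated and DMSO libraries did not overlap for 8 of the 10 genes in HT55 and 9 in SW948, compared with 49.4% and 74.7% of all genes tested. Treated replicate 3 of HT55 was the highest of the 4 treated libraries for 7 genes, namely the genes that fell other than TRA2A, and the lowest for the remaining SRSF11 and CLK1. Treated replicate 2 was the lowest for those 7 genes and the highest for SRSF11, TRA2A and CLK1. In SW948, treated replicate 1 was the lowest for 5 genes, among them SRSF11, TRA2A and CLK1, and the highest for SRSF1, SRSF5 and SRSF7.

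**Figure D2:**
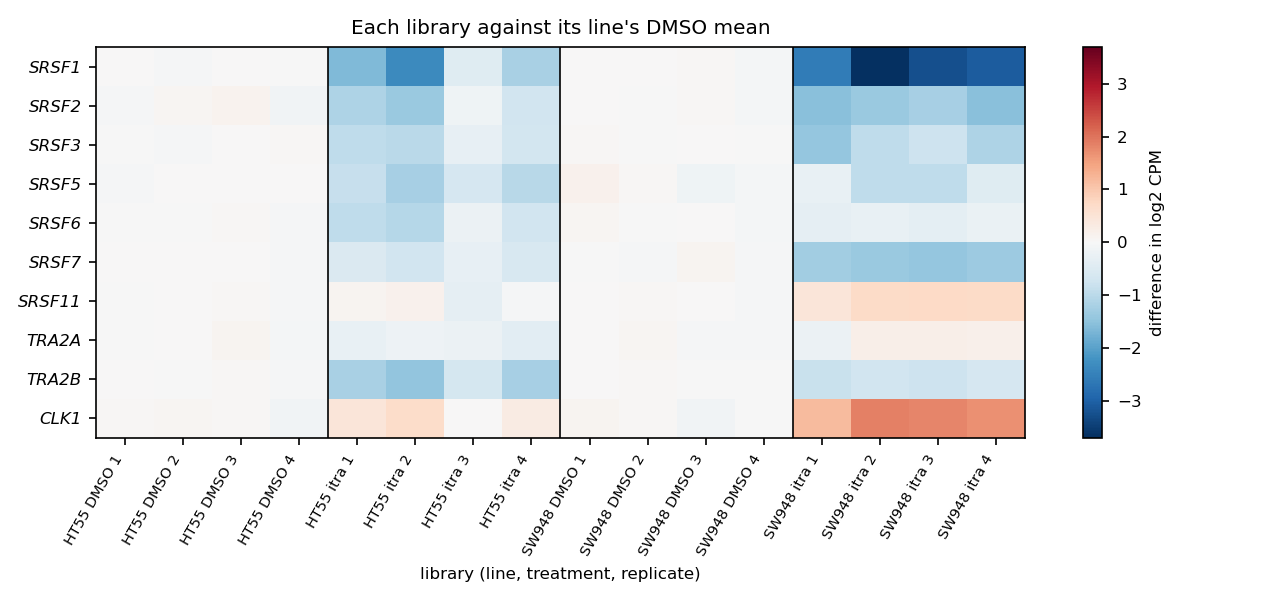
Difference in log2 CPM (prior count 2) of each library from the DMSO mean of its own line, with the 10 genes in rows and the 16 libraries in columns (blue lower, red higher). Treated HT55 replicate 3 is paler than the other treated HT55 libraries except for SRSF11 and TRA2A, at -0.45 for SRSF1 against -1.21 to -2.36. TRA2A changes sign among the treated SW948 libraries, from -0.20 to 0.23.

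The next question was whether the lines responded alike, tested as the interaction of line and treatment over all 16 libraries (SW948 minus HT55 on the log2 scale). It passed for 6 of the 10 genes, 3 upwards and 3 downwards, where 53.9% of 13249 genes were called, 24.8% as higher and 29.1% as lower. SRSF1 (-1.85 ± 0.36 SE), SRSF7 (-0.84 ± 0.105) and SRSF2 (-0.66 ± 0.23) fell further in SW948 (edgeR adjusted p = 0.000277, 2.21e-06 and 0.0224). CLK1 (1.27 ± 0.19) and SRSF11 (0.67 ± 0.12) were higher in the SW948 response (edgeR adjusted p = 2e-05 and 0.000131). TRA2A (0.38 ± 0.12, edgeR adjusted p = 0.0132) also passed, but not on plain library totals (0.18, edgeR adjusted p = 0.18).

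For the remaining 4 genes the main fit did not show a difference between the lines. TRA2B (0.38 ± 0.16, SE) and SRSF6 (0.39 ± 0.17) lay just over the threshold (edgeR adjusted p = 0.0506 and 0.0522), and both passed without HT55 replicate 3 (0.57 and 0.59, edgeR adjusted p = 2.86e-05 and 3.68e-05), that is with the deeper fall in HT55. On plain library totals they were 0.17 and 0.19 and did not pass (edgeR adjusted p = 0.442 and 0.428). SRSF3 (-0.36 ± 0.18) and SRSF5 (0.30 ± 0.19) did not pass (edgeR adjusted p = 0.103 and 0.19), but SRSF3 passed on plain library totals (-0.57, edgeR adjusted p = 0.015), with no filter (-0.37, edgeR adjusted p = 0.00909), without treated HT55 replicate 2 (-0.45, edgeR adjusted p = 0.0332) and without treated SW948 replicate 3 (-0.47, edgeR adjusted p = 0.0331). SRSF5 ranged from 0.16 without treated SW948 replicate 1 to 0.41 without treated HT55 replicate 3. Without HT55 replicate 3 the value of SRSF2 was -0.39 and that of SRSF3 -0.20, while SRSF1 (-1.44), SRSF7 (-0.76), SRSF11 (0.57), TRA2A (0.39) and CLK1 (1.15) kept their calls, as did SRSF2 (edgeR adjusted p = 0.0338).

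**Figure D3:**
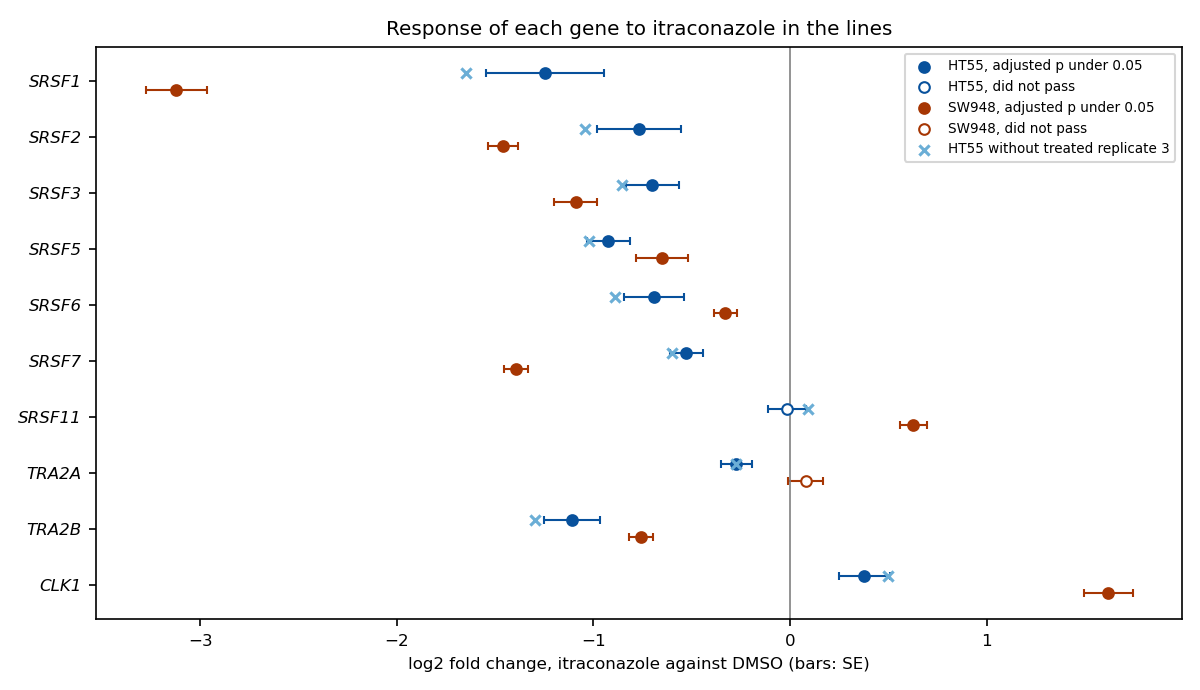
Log2 fold change of each gene after itraconazole in HT55 (blue) and SW948 (orange), with bars for the SE. Filled points passed at an edgeR adjusted p under 0.05, open points did not, and crosses give HT55 without treated replicate 3. SRSF1 (-1.25 and -3.12) and CLK1 (0.38 and 1.62) lie at the ends. TRA2A in SW948 turns to -0.26 and CLK1 in HT55 drops to 0.21 when plain library totals are used.

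The lines also differed before treatment. With DMSO, 9 of the 10 genes were higher in SW948 and 1 (SRSF5) was lower, where 84.2% of 12820 genes were called, 42.6% as higher and 41.6% as lower. The libraries of the lines did not overlap for 9 of the 10 genes, all but SRSF5, compared with 78.8% of genes tested. The largest differences were those of CLK1 (log2 difference 1.17 ± 0.067 SE, edgeR adjusted p = 3.68e-14), TRA2A (0.95 ± 0.055, edgeR adjusted p = 3.6e-14) and SRSF6 (0.66 ± 0.044, edgeR adjusted p = 7.45e-13). SRSF11 (0.43), SRSF3 (0.37), SRSF2 (0.35), SRSF1 (0.19), SRSF7 (0.14) and TRA2B (0.14) were also higher in SW948 by this test. SRSF5 differed by -0.13 ± 0.058 (edgeR adjusted p = 0.0419), a call that 5 of 8 fits with 1 library left out did not keep, and plain library totals turned it to 0.063 and did not pass (edgeR adjusted p = 0.304). When the spread was estimated over all 16 libraries, 5 genes were higher (SRSF3, SRSF6, SRSF11, TRA2A and CLK1) and SRSF1, SRSF2, SRSF5, SRSF7 and TRA2B did not pass. In that fit 5059 of 13249 genes were called higher and 4996 lower.

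With itraconazole, 5 genes were higher in SW948, 2 were lower and 3 did not pass, where 76.6% of 12353 genes were called, 37.8% as higher and 38.8% as lower. The treated libraries of the lines did not overlap for 6 of the 10 genes, compared with 71.2% of genes tested. CLK1 (log2 difference 2.44 ± 0.17 SE), TRA2A (1.34 ± 0.11), SRSF11 (1.10 ± 0.11), SRSF6 (1.05 ± 0.16) and TRA2B (0.53 ± 0.15) were higher in SW948 (edgeR adjusted p = 7.08e-08, 4.1e-07, 1.89e-06, 5.63e-05 and 0.00735). SRSF1 (-1.67 ± 0.35) and SRSF7 (-0.70 ± 0.10) were lower (edgeR adjusted p = 0.000775 and 4.36e-05). SRSF2 (-0.31 ± 0.22), SRSF3 (0.01 ± 0.17) and SRSF5 (0.17 ± 0.18) did not pass (edgeR adjusted p = 0.211, 0.968 and 0.389). The value of SRSF2 rested on HT55 libraries: it was -0.47 and passed without treated replicate 2 (edgeR adjusted p = 0.0361) and -0.01 without replicate 3. It also passed with no filter (-0.31, edgeR adjusted p = 0.0383). The sign of SRSF3 turned on plain library totals (-0.012) and in 4 of 8 fits with 1 library left out. SRSF5 ranged from 0.051 without treated SW948 replicate 1 to 0.29 without treated HT55 replicate 3. Without replicate 3 SRSF1 was at -1.24 and TRA2B at 0.73, and both passed.

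The order of the 4 groups took several forms. SRSF1 and SRSF7 ran from SW948 with DMSO through HT55 with DMSO and HT55 with itraconazole to SW948 with itraconazole, and no neighbouring groups overlapped. SRSF2 had the same order, with overlap between the treated groups. For SRSF3 and TRA2B the DMSO groups came first, without overlap between them, and the treated groups overlapped. SRSF5 overlapped both between the DMSO groups and between the treated groups. SRSF6 was ordered by line, with both SW948 groups above both HT55 groups and no overlap. SRSF11 and TRA2A were also ordered by line. Neighbouring groups overlapped for SRSF11 in HT55 and for TRA2A in SW948. CLK1 was highest in treated SW948, followed by SW948 with DMSO, and its HT55 groups overlapped.

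Levels of different genes can be set side by side only per length, here as CPM per kilobase of the canonical transcript. With DMSO, SRSF2 stood at 74.2 ± 5.65 in HT55 and 94.8 ± 3.46 in SW948 (SD, n = 4), the highest of the 10 genes on this length. The lowest were CLK1 in HT55, at 13.3 ± 0.847, and SRSF11 in SW948, at 26.7 ± 0.526. Per kilobase of all annotated exons of a gene, SRSF1 (49.6) came before SRSF2 (47.1) in HT55, and CLK1 (10.7) was below SRSF11 (12.5) in SW948, so both of these orders depend on the length taken. With itraconazole SW948 held CLK1 at 93.5 ± 18.5, the highest of the 10, and SRSF1 at 7.09 ± 2.24, the lowest, which was also the case per kilobase of all exons (33.8 and 6.55). In treated HT55, SRSF2 (43.6 ± 16.9) and SRSF7 (43.0 ± 5.35) were highest and differed by less than their spread. At the low end SRSF6 (15.6 ± 4.29), CLK1 (17.3 ± 3.30), TRA2A (17.4 ± 1.11) and TRA2B (17.9 ± 4.64) could not be ordered, and per kilobase of all exons TRA2B (5.70) was lowest and SRSF6 was at 13.9. Without replicate 3 the treated HT55 levels per kilobase of the canonical transcript were 40.6 ± 2.57 for SRSF7, 35.9 ± 8.66 for SRSF2 and 13.6 ± 1.70 for SRSF6 (SD, n = 3).

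Shares of the summed counts of the 10 genes do not depend on the scaling between libraries. SRSF1 held 21.7% ± 0.413 of them in HT55 with DMSO and 14.5% ± 4.85 with itraconazole, and 19.7% ± 0.356 and 3.71% ± 1.46 in SW948 (SD, n = 4). CLK1 went from 1.85% ± 0.103 to 4.30% ± 1.59 in HT55 and from 3.32% ± 0.207 to 16.5% ± 2.31 in SW948. SRSF11 went from 5.96% ± 0.0273 to 10.5% ± 3.34 and from 6.40% ± 0.105 to 16.1% ± 0.307. The share of TRA2A was 2.84% ± 0.0863 and 4.08% ± 0.912 in HT55, and 4.39% ± 0.128 and 7.52% ± 0.522 in SW948. TRA2B kept nearly the same share in SW948, at 10.7% ± 0.300 and 10.3% ± 0.640, and went from 12.2% ± 0.108 to 9.40% ± 0.526 in HT55. Without replicate 3 the treated HT55 shares were 12.6% ± 3.61 for SRSF1, 4.93% ± 1.19 for CLK1, 11.9% ± 1.99 for SRSF11, 4.41% ± 0.777 for TRA2A and 9.22% ± 0.469 for TRA2B (SD, n = 3). SRSF3 held 19.6% ± 0.568 and 20.2% ± 0.875 in HT55, within the spread, and 20.1% ± 0.294 and 15.3% ± 2.04 in SW948.

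**Figure D4:**
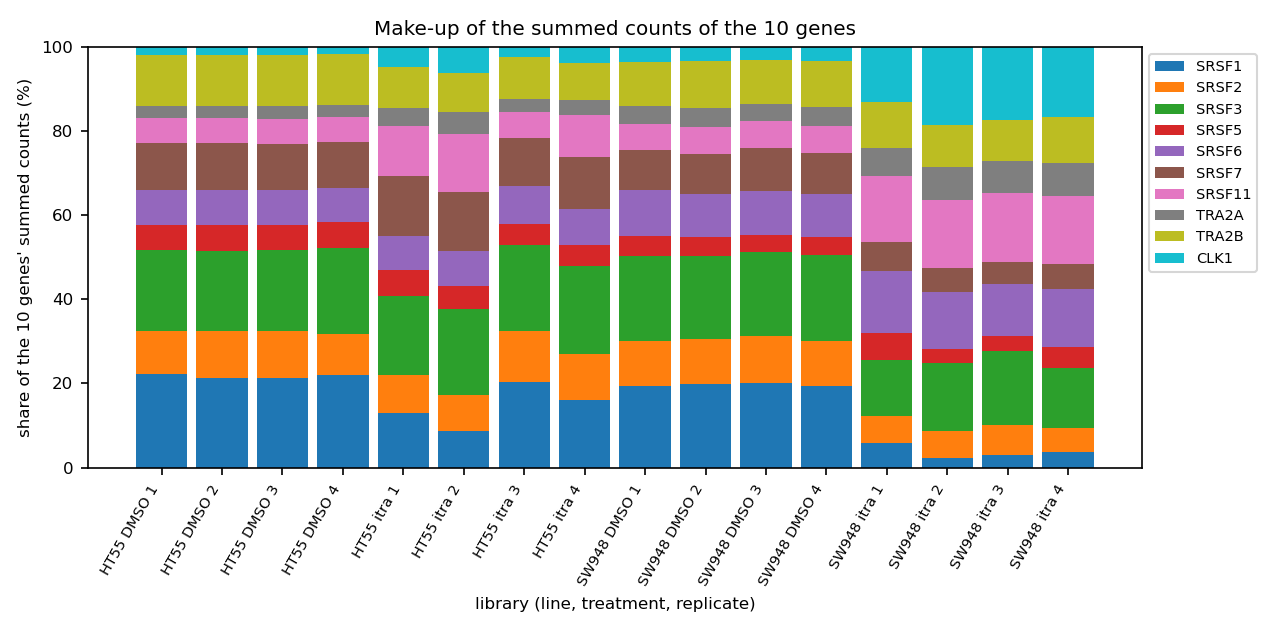
Share (%) of the summed counts of the 10 genes taken by each gene in each of the 16 libraries, as stacked bars from 0 to 100. The SRSF1 segment shrinks to a mean of 3.71% and the CLK1 segment widens to 16.5% in treated SW948, and treated HT55 replicate 3, with SRSF1 at 20.3%, looks most like the DMSO libraries.

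Other parts of the splicing machinery were counted in lists written with earlier results of these data known. Their counts are to be read against the 54.0% of all genes called in HT55 and the 80.2% in SW948. In HT55 and SW948, the share called was 66.7% and 88.9% for the other SR and SR-related proteins, and 44.4% and 88.9% for the kinases. It was 53.3% and 80.0% for the hnRNP list, 56.7% and 86.7% for the core spliceosome and 58.8% and 94.1% for the decay factors. Without treated HT55 replicate 3, 64.5% of all genes were called. The HT55 counts were then 5 higher and 9 lower for the other SR and SR-related proteins, and 4 and 1 for the kinases. They were 5 and 14 for the hnRNP list, 8 and 13 for the core spliceosome, and 5 and 6 for the decay factors. The list medians without that replicate were -0.14, 0.35, -0.14, -0.073 and -0.0032, in the same order, and that of the 10 genes was -0.87. Among 20 other SR and SR-related proteins, 18 were tested. In HT55, 4 rose, 8 fell and 6 did not pass (median log2 fold change -0.10), and in SW948, 11 rose, 5 fell and 2 did not pass (median 0.24). RSRP1, an arginine and serine rich protein, had the largest rise of the list in both lines (0.86 ± 0.20 and 1.56 ± 0.15 SE, edgeR adjusted p = 0.00387 and 2.29e-07). SRSF10, an SR protein that represses splicing when dephosphorylated, had the largest fall in HT55 (-0.56 ± 0.070, edgeR adjusted p = 0.00011), and SREK1, an SR-related regulator, in SW948 (-0.90 ± 0.094, edgeR adjusted p = 6.64e-07). Their values in the other line were -0.75 for SRSF10 and -0.30 for SREK1, and both passed there.

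Of 9 kinases of SR proteins other than CLK1, 4 rose, 0 fell and 5 did not pass in HT55 (median 0.33), and 5 rose, 3 fell and 1 did not pass in SW948 (median 0.62). CLK3, a close relative of CLK1, had the largest rise in both lines (0.44 ± 0.12 and 2.21 ± 0.13 SE, edgeR adjusted p = 0.00808 and 2.05e-09). Its treated and DMSO libraries overlapped in HT55. The CLK genes did not all rise: in SW948 CLK2 averaged 21.6 CPM with DMSO and 10.2 with itraconazole, and CLK4 12.6 and 21.0. In HT55 CLK2 averaged 20.8 and 18.3 CPM, and CLK4 7.79 and 10.1. DYRK1B, a kinase linked to cell quiescence, fell in SW948 (-1.22 ± 0.14, edgeR adjusted p = 2.1e-06), and its HT55 value was -0.32 (edgeR adjusted p = 0.088), or -0.42 without replicate 3 (edgeR adjusted p = 0.0162).

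The list of 30 hnRNP proteins and other regulators that often oppose SR proteins had 4 rises, 12 falls and 14 that did not pass in HT55 (median -0.14), and 10 rises, 14 falls and 6 that did not pass in SW948 (median -0.18). RBM3, a cold-inducible RNA-binding protein, had the largest fall in HT55 (-1.44 ± 0.091 SE, edgeR adjusted p = 3.35e-06) and HNRNPD, also known as AUF1 for its role in mRNA decay, in SW948 (-2.33 ± 0.075, edgeR adjusted p = 2.29e-11). PTBP3, a polypyrimidine tract binding protein, rose most in HT55 (0.81 ± 0.11, edgeR adjusted p = 0.000154), and MBNL2, a muscleblind factor linked to differentiation, in SW948 (1.63 ± 0.091, edgeR adjusted p = 1.51e-09). All 4 also passed in the other line in the same direction. The values there were -2.29 for RBM3 and 1.05 for PTBP3 in SW948, and -0.87 for HNRNPD and 0.52 for MBNL2 in HT55.

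Among 30 core spliceosome proteins, 4 rose, 13 fell and 13 did not pass in HT55 (median -0.11), and 16 rose, 10 fell and 4 did not pass in SW948 (median 0.21). SNRPD1, an Sm ring protein, had the largest fall in both lines (-0.71 ± 0.068 and -0.87 ± 0.079 SE, edgeR adjusted p = 2.66e-05 and 1.75e-07). The largest rises were those of SNRNP70, the U1 snRNP subunit that SR proteins contact, in HT55 (0.50 ± 0.067, edgeR adjusted p = 0.00017), and of the U2 snRNP subunit SNRPA1 in SW948 (1.19 ± 0.075, edgeR adjusted p = 4.53e-09). SNRNP70 rose by a like amount in SW948 (0.49, edgeR adjusted p = 0.000112). SNRPA1 did not pass in HT55 (0.094, edgeR adjusted p = 0.417), but passed without replicate 3 (0.20, edgeR adjusted p = 0.00696).

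Transcripts with a poison exon are removed by nonsense-mediated decay. Of 18 decay and exon junction complex factors 17 were tested, with 5 rises, 5 falls and 7 that did not pass in HT55 (median -0.0018) and 8 rises, 8 falls and 1 that did not pass in SW948 (median 0.15). CASC3, an exon junction complex core protein, had the largest rise in both lines (0.75 ± 0.10 and 1.03 ± 0.059 SE, edgeR adjusted p = 0.000216 and 1.98e-09). MAGOHB, another core protein of that complex, fell most in HT55 (-0.77 ± 0.13, edgeR adjusted p = 0.00076) and PNRC2, a decapping adaptor, in SW948 (-1.05 ± 0.075, edgeR adjusted p = 1.61e-08). MAGOHB fell in SW948 too (-1.04, edgeR adjusted p = 7.6e-06), and PNRC2 did not pass in HT55 (-0.088, edgeR adjusted p = 0.367). The medians of all these lists lay nearer to 0 than the median of -0.70 of the 10 genes in both lines; no test of that difference was made.

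**Figure D5:**
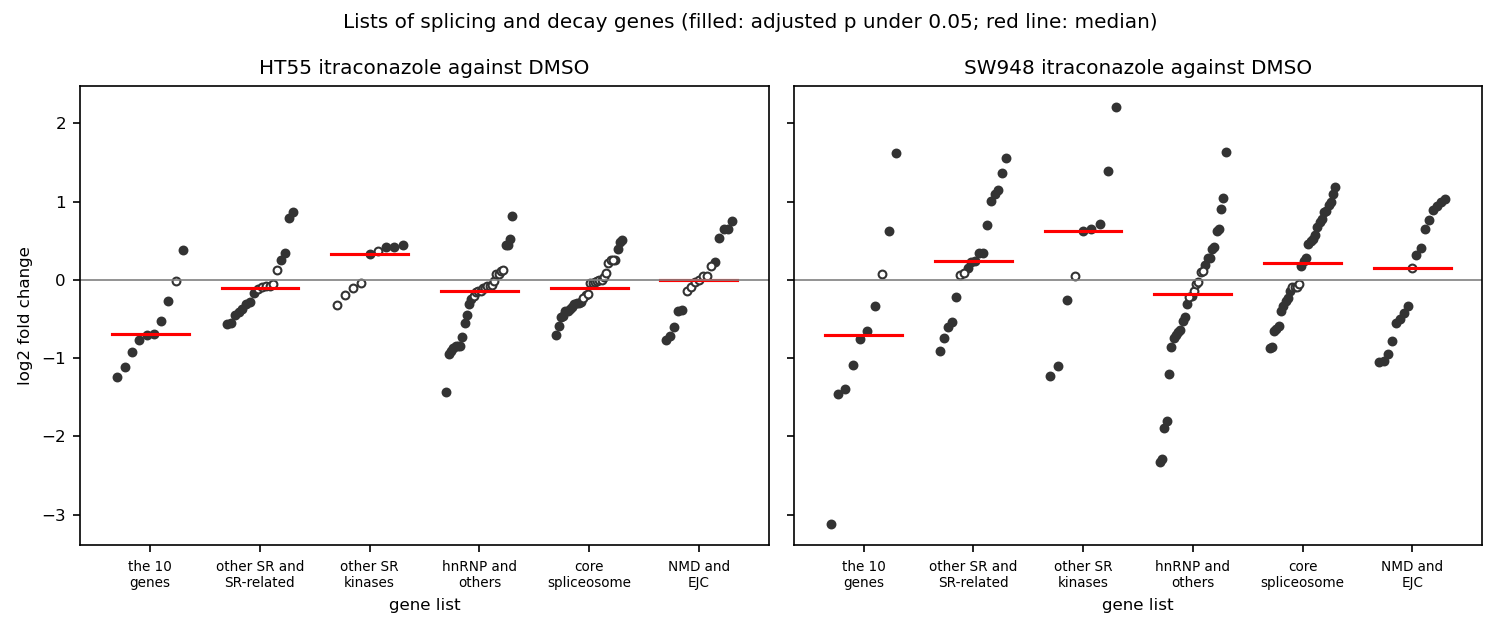
Log2 fold change of every tested gene of each list after itraconazole, in HT55 (left) and SW948 (right). Filled points passed at an edgeR adjusted p under 0.05, open points did not, and the red line is the list's median. The 10 genes have a median of -0.70 in each line. The other SR and SR-related proteins have -0.10 and 0.24, and the other kinases of SR proteins 0.33 and 0.62. With plain library totals the median of all genes lies at -0.18 and -0.35.

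For each of the 10 genes, the gene whose log2 CPM followed it most closely over the 16 libraries was looked up among 9220 others. As a description, Pearson r was highest for CLK1 with GOLGA7 (0.996) and SRSF7 with WDR73 (0.995). SRSF1 was closest to SMUG1 (0.992), SRSF6 to CHRAC1 (0.992), SRSF11 to PMAIP1 (0.992) and TRA2A to ZW10 (0.991). SRSF2 went with CENPO (0.990), TRA2B with RBM5 (0.982), SRSF3 with FOXA3 (0.974) and SRSF5 with EPM2AIP1 (0.956). The 16 points fall into the 4 groups, so differences between groups enter every r.

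The processed pseudogenes of SRSF1, SRSF2, SRSF3 and SRSF6 had at most 4 counts in any library. Reads that match a gene and its copy equally well were left out of both, and their number for each gene is not in the tables.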

How the data were processed

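Total RNA was made into TruSeq libraries and read as single ends of 50 bp. The authors deposited raw read counts per gene in 16 tables. The submitters' processing notes name TopHat, HTSeq, DESeq and hg19; versions, strand setting and annotation release are not given in the sources used here. No per-sample column was left aside.

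Counts were scaled by TMM and tested with the quasi-likelihood test of edgeR 4.0.16 (R 4.3.3) after its filterByExpr filter, on the libraries compared only, or all 16 for the interaction of line and treatment. Genes passed at a Benjamini-Hochberg adjusted p under 0.05 over all genes tested. The SE is the absolute log2 fold change divided by the root of F. Log2 CPM used a prior count of 2. The scripts were tested on simulated data. Symbols and coordinates came from GENCODE on GRCh37 (GENCODE v44 mapped back), matched to 47098 of 54127 identifiers, and poison exon sequences from the GRCh37 genome. SRSF8, RBM8A and PECAM1 were not matched by symbol and are not analysed here, and 1 marker of the immune list is not reported here.

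The 10 genes and all lists were chosen with earlier results of these data known. Beyond the 10, the text names in each list and line the largest riser and the largest faller whose mean log2 CPM was 3 or more. It also names the gene most like each of the 10 over the libraries, the counted genes that share exon bases with the 10, and CLK2 and CLK4. Copies are given by their counts. Alternatives were DESeq2 1.42.0 size factors, its Wald test, plain library totals, no filter, at least 10 counts in every library, a replicate block, each library left out, the 20 top and the mitochondrial genes left out, 1 fit on all libraries, and calls only at an absolute log2 fold change of 0.5 or more. Counting depth limits precision, and without molecular identifiers reads are not independent molecules. No libraries agreed within sampling noise (chi-square per degree of freedom of at least 1.43 between replicates). Labels give no batch.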

Additional observations from a re-analysis of the deposited data

Results flagged for a closer look

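Of the 40 groups formed by 10 genes and 4 conditions, 4 held a library far from the other 3 by Dixon's criterion, which divides the distance to the nearest library by the whole range. Chance gives about 1 in 20 for independent groups, but the 10 genes share the same libraries, so these groups are not independent. In HT55 with DMSO, replicate 4 was low for SRSF7 (ratio 0.855) and CLK1 (0.831). In SW948 with itraconazole, replicate 1 was low for SRSF11 (0.838) and TRA2A (0.887).

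The response to itraconazole differed between the lines (SW948 minus HT55, log2 scale, edgeR interaction at an adjusted p under 0.05) for 6 of the 10 genes, where 53.9% of all genes tested were called. The values were -1.85 for SRSF1, -0.84 for SRSF7, -0.66 for SRSF2, 0.38 for TRA2A, 0.67 for SRSF11 and 1.27 for CLK1. Among the other named splicing and decay genes it was lower in SW948 for HNRNPD (-1.44), PNRC2 (-0.93), DYRK1B (-0.87), RBM3 (-0.82) and SREK1 (-0.57). It was higher in SW948 for CASC3 (0.31), RSRP1 (0.73), SNRPA1 (1.13), MBNL2 (1.13) and CLK3 (1.80). It did not pass for SNRNP70 (0.017), SNRPD1 (-0.14), SRSF10 (-0.15), MAGOHB (-0.24) and PTBP3 (0.27). These genes were named for the largest rise or fall of a list within a line of these same data. That choice favours a difference between the lines, so their number is no result about the lists. The cause of these differences was not tested.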

How the results depend on the processing

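Of 10 genes, 8 fell and 1 rose in HT55. The rise was 0 genes on plain library totals and with the 0.5 minimum, and 0 to 1 when 1 library was left out (falls 7 to 8). Of 12133 genes tested, 2279 were higher and 4710 lower on plain totals, and 1908 and 1878 with the 0.5 minimum. In SW948 the 7 falls and 2 rises stayed within 1.5 times under every alternative (7 and 2 to 3 with 1 library left out). Of 12505 genes tested there, 5165 fell and 4865 rose in the main fit, and 4015 and 3437 with the 0.5 minimum. The interaction was higher for 3 genes and for 5 with DESeq2 size factors, the DESeq2 test or no filter (3 to 5 with 1 library left out, and 3 to 4 lower). Of 13249 genes, 3292 were higher and 3849 lower in the main fit. It was 3421 and 3720 with DESeq2 size factors, 3477 and 3742 with the DESeq2 test, and 3207 and 3867 of 26181 with no filter. With DMSO, 9 genes were higher in SW948 (9 in every leave-one-out fit) and 1 lower; 5 were higher in 1 fit on all 16 libraries and 3 with the 0.5 minimum, and 0 were lower in both of these, on plain totals, with the DESeq2 test, with no filter and with at least 10 counts (0 to 1 with 1 library left out). Of all genes under DMSO, 5059 were higher and 4996 lower of 13249 in the fit on all 16 libraries. With the 0.5 minimum it was 3835 and 3663 of 12820. Lower were 4321 on plain totals, 5194 with the DESeq2 test and 6174 of 24053 with no filter. With itraconazole the counts were 5 higher and 2 to 3 lower with 1 library left out, where the main fit called 37.8% and 38.8% of all genes. Direction turned for SRSF11 in HT55 (0.0070 without DMSO replicate 3 and 0.091 without treated replicate 3, in a leave-one-out range of -0.076 to 0.091), TRA2A in SW948 (-0.26) and SRSF5 under DMSO (0.063), both on plain totals, and SRSF3 between treated lines (-0.012 on plain totals, and -0.075, -0.084, -0.020 and -0.089 without treated HT55 replicate 1 or 2 or SW948 replicate 2 or 3, in a range of -0.089 to 0.184). The cause was not tested.

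Same-numbered libraries did not deviate together for every number (r from -0.12 to 0.12), so the numbers were not taken as pairs. Number 3 was over 0.1 between DMSO and itraconazole in both lines (r = 0.116 in HT55 and 0.104 in SW948). The mean r between unlike numbers was -0.009 and -0.015 there. Number 2 was over 0.1 between the treated lines (r = 0.110). The cause was not tested. With the replicate block the interaction was higher for 5 genes, adding SRSF6 (0.43, edgeR adjusted p = 0.0212) and TRA2B (0.41, edgeR adjusted p = 0.0195), and no other call among the 10 genes changed. Of 13249 genes, 3269 were higher and 3768 lower with that block.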
